A study of Rattus norvegicus with 6 samples.

Results

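The transcripts described here are those of 35 autophagy, lysosome and muscle atrophy genes, out of 22250 genes in the table. They were taken by gene name, from a list drawn up with earlier results of these data known. Each name had 1 row, and all 35 passed the filter on low counts. They fall into 5 genes of the LC3 and GABARAP proteins, 3 cargo receptors, 7 genes of initiation and nucleation, 5 of the conjugation machinery, 4 mitophagy receptors and regulators, 2 lysosome membrane proteins, 5 cathepsins, 2 lysosome transcription factors and 2 atrophy ligases. RNA came from cultured heart muscle cells (neonatal rat cardiomyocytes). They were isolated with collagenase from hearts of 1-day-old Sprague-Dawley rats, wild-type in genotype, and grown in medium with foetal bovine serum in both groups. Cells of 3 libraries received 3Cl-HBA at 40 µM for 48 h. Cells of the other 3 libraries received the solvent DMSO for 48 h. The series title places 3Cl-HBA in a study of activating hydroxycarboxylic acid receptor 1, a receptor for lactate. The labels do not say whether replicates were separate cultures or animals, so the p-values speak for the spread between these libraries, which may be technical.

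Autophagy carries cytoplasm, protein aggregates and worn organelles to the lysosome for breakdown. A kinase complex and a lipid kinase complex start a double membrane, a chain of enzymes attaches LC3 and GABARAP proteins to it, receptors tether the cargo, and the finished vesicle joins the lysosome, where cathepsins digest the contents. In heart muscle the pathway renews mitochondria and supports survival during starvation. Fbxo32 and Trim63, ubiquitin ligases of striated muscle, instead mark proteins for the proteasome and are known for their part in wasting.

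Library totals were 13240800 to 17202191 reads, and the 35 genes took 0.833% to 0.871% of them. All 10 cardiomyocyte markers were detected, with summed levels of 28272 to 30137 reads per 1000000 reads of the library (CPM) in DMSO and 27807 to 28618 CPM after 3Cl-HBA. The cultures also held RNA of other heart cells: 7 fibroblast markers summed to 15070.2 to 15969 and 15201 to 15483 CPM, and 10 macrophage markers to 486 to 520.3 and 506 to 524 CPM. None of these fibroblast and macrophage markers was at 0 in any library. Levels are therefore those of a mixed culture, in which fewer cells of a type and less RNA per cell cannot be told apart.

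Transcripts of autophagy, lysosome and atrophy genes gave no call when treated cells were set against DMSO. The count was 0 of 35 at a Benjamini-Hochberg adjusted p under 0.05 in edgeR's quasi-likelihood test, where 0% of the 13903 genes tested passed, and adjusted p of the 35 genes ran from 0.959 to 0.999. DESeq2 and limma-voom also called 0 of the 35, and over all genes they called 0 and 1. By edgeR 711 genes had an unadjusted p under 0.05. At an unadjusted p under 0.05 there was 1 gene higher, Atg12, and 0 lower, against 2.52% and 2.59% of all genes. That count of 1, both directions together, depended on the setting. It was 4 without 3Cl-HBA replicate 2, against 605 of 14051 over all genes tested. It was 3 without DMSO replicate 3, against 963 of 14077, and with the length trend removed, against 702 of 13903. A count of 2 came without DMSO replicate 2 (728 of 14060 over all genes), with DESeq2 (405 of 18107) and with limma-voom (699 of 13903). The count was also 2 with no filter on low counts (954 of 18107) and without robust estimation (705 of 13903). The 3 treated libraries lay entirely above the 3 DMSO libraries for Atg12 and entirely below them for Ulk1, which is 1 of 35 each way, where 5.24% and 5.21% of all genes did so. Shares of that size come to between 1 and 2 of 35 genes each way, so the separation of Atg12 and Ulk1 is no more than the background. Log2 fold changes, 3Cl-HBA minus DMSO, ran from -0.12 for Ulk1 to 0.17 for Map1lc3a, with 20 above 0 and 15 below and a median of 0.0073. Over all genes tested the median was -0.00051, with 6922 above 0 and 6981 below.

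Intervals of single genes were narrow. They rest on the spread between these libraries, which may be technical, and each holds for its gene alone. For 35 of 35 genes the 95% interval stayed within 1.5-fold in both directions, against 80.9% of all genes, and for 34 of 35 it stayed within 1.25-fold, against 59.6%. The exception at 1.25-fold was Map1lc3a, whose upper bound was 1.28-fold. The 35 genes were more abundant than most, with a median of 82.2 CPM against 25.3 CPM for all genes tested, and the median SD of log2 CPM within a group was 0.066 against 0.11.

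**Figure D1:**
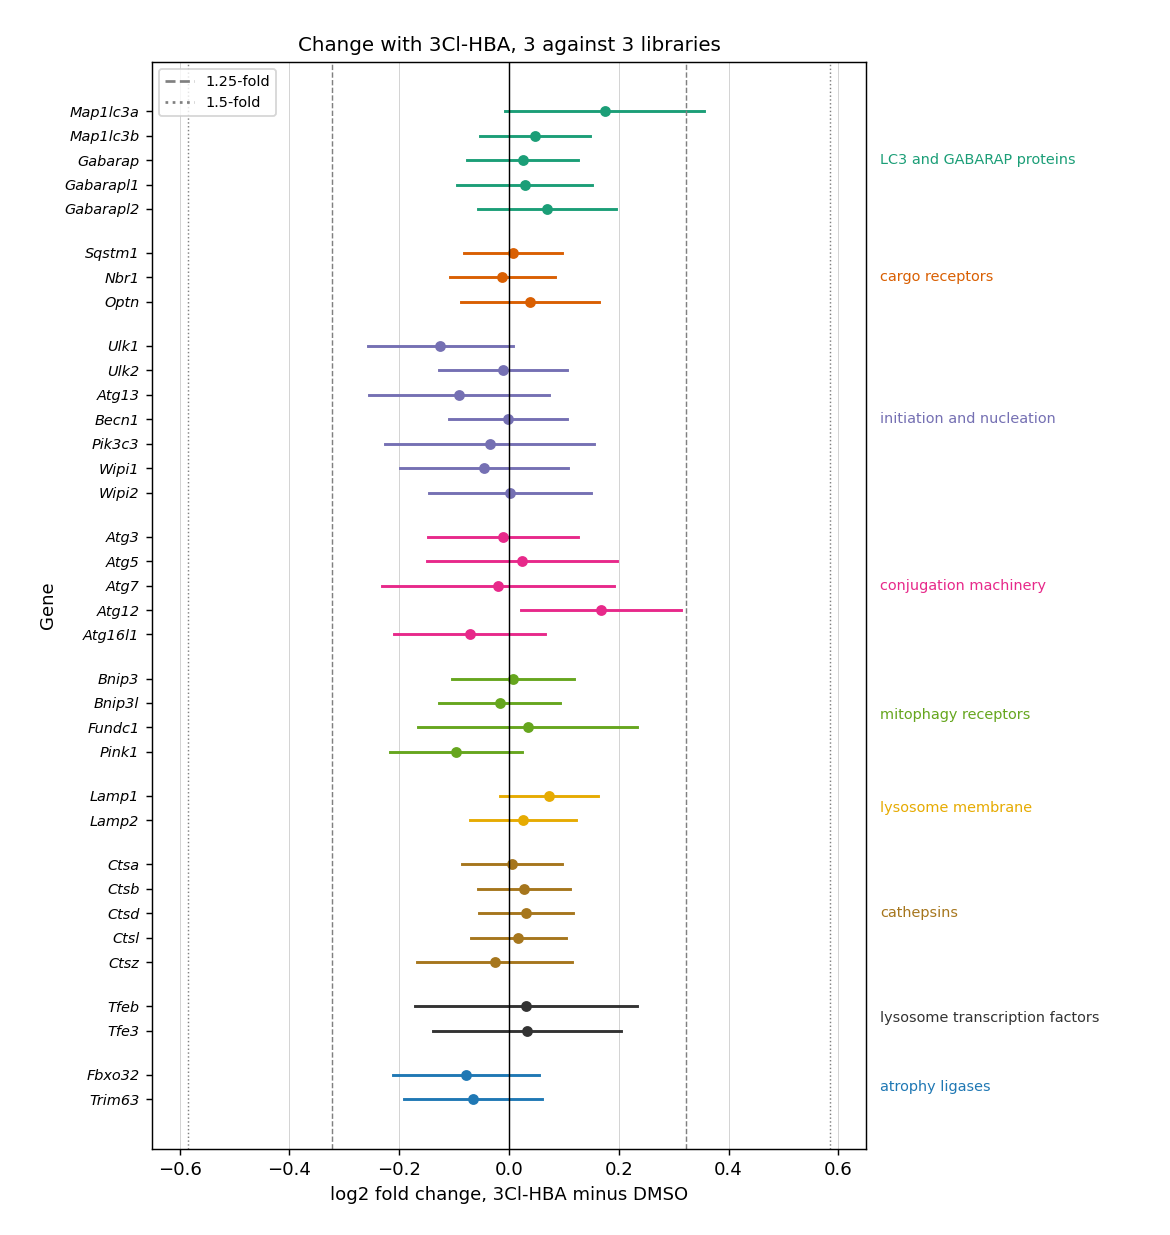
Log2 fold change (x axis, 3Cl-HBA minus DMSO) of each of the 35 genes (y axis, grouped by role), with points for edgeR estimates and bars for 95% intervals; dashed and dotted lines mark 1.25-fold and 1.5-fold. Each interval lies inside 1.5-fold, and the interval of Atg12, 0.022 to 0.31, is the one that leaves out 0.

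**Figure D2:**
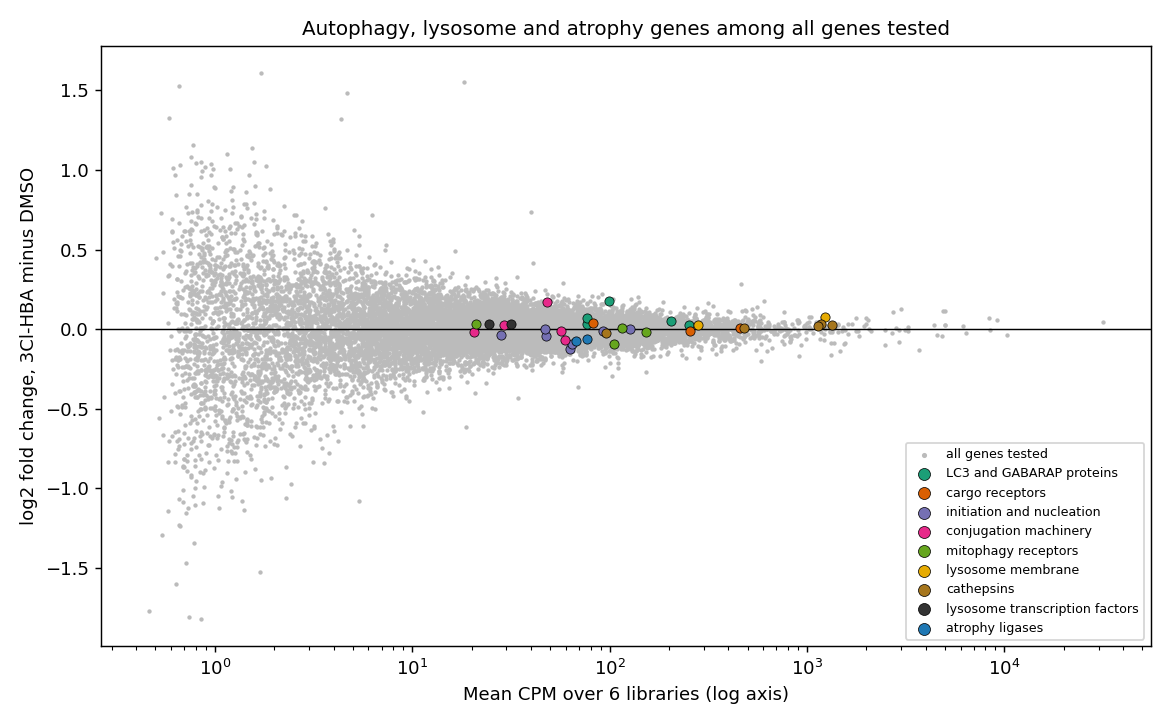
Log2 fold change (y axis, 3Cl-HBA minus DMSO) against mean CPM over the 6 libraries (x axis, log scale) for all 13903 genes tested (grey), with the 35 autophagy, lysosome and atrophy genes in colour by role. The coloured points lie between -0.12 and 0.17, within the cloud of genes of like abundance.

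Steady levels of the 35 transcripts differed widely per unit of length, and cathepsins led them. Levels of different genes are compared here as FPKM, the deposited values that divide reads by transcript length and by library total. Ctsb, cathepsin B, stood at 676 to 709 FPKM over the 6 libraries and Ctsl, cathepsin L, at 674 to 733 FPKM, so the order of these cysteine proteases was not resolved. The aspartic protease Ctsd followed at 564 to 603 FPKM, below both in each library. Next came Gabarap at 288 to 323 FPKM and Lamp1 at 284 to 324 FPKM, whose ranges overlapped, then the cargo receptor Sqstm1 at 221 to 230.5 FPKM. At the low end were the lipid kinase Pik3c3 at 7.81 to 10.5 FPKM and the activating enzyme Atg7 at 5.97 to 7.72 FPKM. Ctsb was above 99.5% of all genes tested by mean FPKM, Becn1 above 82.1% and Atg7 above 39.1%. Ranges of neighbours in this order overlapped in 18 of 34 neighbouring pairs.

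**Figure D3:**
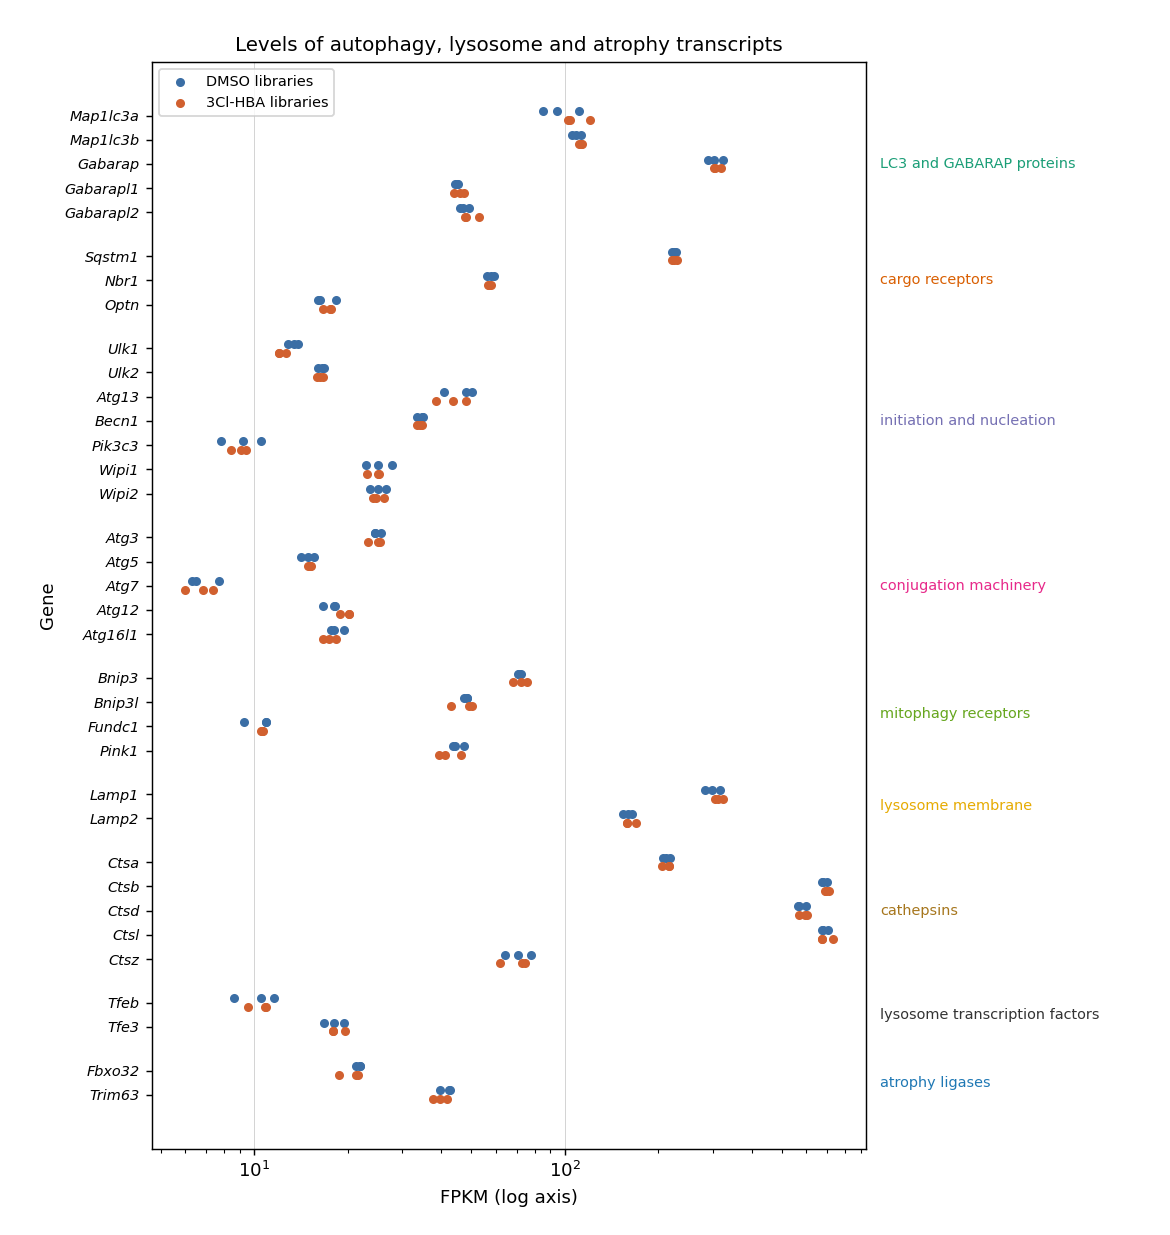
FPKM (x axis, log scale) of the 35 genes (y axis, grouped by role), with 1 point per library, 3 DMSO in blue and 3 3Cl-HBA in orange. Cathepsins B, L and D run from 564 FPKM up and Atg7 reaches 7.72 FPKM at most, while the 2 colours of a gene lie close together.

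LC3 and GABARAP proteins are small ubiquitin-like proteins that coat the forming vesicle and bind cargo receptors. All 5 had estimates above 0, from 0.025 to 0.17 with a median log2 fold change of 0.048, and 0 of 5 passed. Map1lc3a (ENSRNOG00000025443, chromosome 3, 150801289 to 150802935, plus strand), which encodes LC3A, had 82.1, 91.3 and 108 CPM in DMSO replicates 1 to 3 and 116, 101 and 99.7 CPM in 3Cl-HBA replicates 1 to 3. Positions of genes are as deposited, on an assembly that the sources used here do not name. The treated libraries were high as a group, but DMSO replicate 3 stood above 3Cl-HBA replicates 2 and 3, so the groups overlapped. Its log2 fold change was 0.17 ± 0.085 (SE), with a 95% interval from -0.0074 to 0.36 and an edgeR adjusted p of 0.959. DMSO replicates 1 and 3 were far apart: without replicate 1 the estimate became 0.087, and without replicate 3 it became 0.28 (edgeR adjusted p 0.121, the lowest over the alternatives, where it reached 1).

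Gabarap (ENSRNOG00000017417, chromosome 10, 56601288 to 56604221, plus strand), the most abundant of the family per length, had 236, 248 and 267 CPM in DMSO replicates 1 to 3 and 249.8, 264 and 249.7 CPM in 3Cl-HBA replicates 1 to 3. Groups overlapped, the log2 fold change was 0.025 (95% interval -0.076 to 0.13), and with 1 library left out it ran from -0.015 to 0.069. Map1lc3b, which encodes LC3B, the form most used to follow autophagy, had 199.5, 193 and 209 CPM in DMSO replicates 1 to 3 and 206, 206 and 209.9 CPM in 3Cl-HBA replicates 1 to 3. Its treated libraries sat inside or just above the DMSO range, with a log2 fold change of 0.048 (95% interval -0.052 to 0.15). Gabarapl1 and Gabarapl2, close relatives of Gabarap, had 75.7 ± 0.861 and 77.3 ± 2.36 CPM and 75.3 ± 2.47 and 79.1 ± 4.45 CPM (mean ± SD, n = 3, DMSO then 3Cl-HBA), with log2 fold changes of 0.029 and 0.070. The make-up of the family by FPKM was nearly the same in both groups. Gabarap held 50.5 ± 0.216% in DMSO and 49.4 ± 1.61% after 3Cl-HBA, Map1lc3b 18.1 ± 0.724% in DMSO and 18 ± 0.505% after 3Cl-HBA and Map1lc3a 16 ± 1.28% in DMSO and 17.4 ± 1.28% after 3Cl-HBA. Gabarap has a short transcript model of 822 bases, and by read counts, not divided by length, its share was 36% and 35.2%, while that of Map1lc3b was 28.9% and 28.6%.

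Cargo receptors bind ubiquitin on one side and LC3 on the other. The 3 receptors had log2 fold changes from -0.012 to 0.038, and 0 of 3 passed. Sqstm1 (ENSRNOG00000003147, chromosome 10, 35704730 to 35716294, minus strand) encodes p62, which gathers protein aggregates and is itself degraded by autophagy. It had 454, 448 and 464 CPM in DMSO replicates 1 to 3 and 465, 459 and 449.5 CPM in 3Cl-HBA replicates 1 to 3, so the ranges overlapped almost fully, and its log2 fold change was 0.0079 (95% interval -0.082 to 0.097). The Sqstm1 locus overlaps Mrnip on the other strand in the deposited coordinates, and reads of the pair cannot be told apart without the strand setting. Nbr1, a relative of p62 with a similar layout, had 263, 257 and 252 CPM in DMSO replicates 1 to 3 and 253, 253 and 259 CPM in 3Cl-HBA replicates 1 to 3. All 6 libraries were close together, with a log2 fold change of -0.012 (95% interval -0.11 to 0.083). Optn, optineurin, a receptor used in mitophagy and against bacteria, had 81.1 ± 5.93 and 83.2 ± 2.94 CPM, and DMSO replicate 1 was its highest library at 87.9 CPM. Its log2 fold change of 0.038 turned to -0.00092 without DMSO replicate 2.

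Genes that start the vesicle had mostly negative estimates, with 1 of 7 above 0, a median log2 fold change of -0.035 and 0 of 7 passing. Ulk1 (ENSRNOG00000037505, chromosome 12, 51908448 to 51934702, plus strand), the kinase that receives nutrient signals from mTORC1 and AMPK, had 65.3, 62.7 and 68.1 CPM in DMSO replicates 1 to 3 and 58.5, 62.5 and 58.7 CPM in 3Cl-HBA replicates 1 to 3. Each treated library was below each DMSO library, by a margin that came down to 62.7 CPM in DMSO replicate 2 against 62.5 CPM in 3Cl-HBA replicate 2. Its log2 fold change was -0.12 ± 0.066 (SE), with a 95% interval from -0.26 to 0.0078. By edgeR the adjusted p was 0.965 and the unadjusted p 0.0645. The estimate stayed between -0.16 and -0.098 over the 15 alternatives. The related kinase Ulk2 had 92.6 ± 1.77 and 92 ± 2.3 CPM and a log2 fold change of -0.010 (95% interval -0.13 to 0.11). Atg13, the Ulk1 partner that links it to the scaffold of the complex, had 72.2, 58.7 and 69.2 CPM in DMSO replicates 1 to 3 and 55, 69.4 and 63 CPM in 3Cl-HBA replicates 1 to 3. Its libraries were scattered within both groups and overlapped, and the log2 fold change of -0.091 (95% interval -0.25 to 0.073) became -0.0084 without 3Cl-HBA replicate 1.

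Becn1 and Pik3c3 encode Beclin 1 and the catalytic subunit of the lipid kinase that marks the nascent membrane. Becn1 had 128, 124 and 130.2 CPM in DMSO replicates 1 to 3 and 129, 128 and 125 CPM in 3Cl-HBA replicates 1 to 3. The groups overlapped, with a log2 fold change of -0.0022 (95% interval -0.11 to 0.11). Pik3c3 was low at 28.5 ± 4.19 and 27.8 ± 1.6 CPM, and its DMSO libraries alone spanned 24.2 to 32.5 CPM, a wider range than the treated ones. Wipi1 and Wipi2, proteins that bind the lipid made by Pik3c3, had 48.5 ± 4.82 and 46.9 ± 2.61 CPM and 46.8 ± 2.9 and 46.8 ± 2.17 CPM, with log2 fold changes of -0.046 and 0.0018. Wipi1 overlaps Arsg on the other strand. Wipi2 and Wipi1 lay next to each other in FPKM and were not separated by their ranges, 23.7 to 26.6 FPKM and 23 to 27.9 FPKM.

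The conjugation machinery attaches LC3 to lipid: Atg7 activates, Atg3 transfers, and Atg12, joined to Atg5 and held by Atg16l1, sets where this happens. Of these 5 genes 2 had estimates above 0, the median was -0.010 and 0 passed. Atg12 (ENSRNOG00000000157, chromosome 18, 40721800 to 40732126, minus strand) had 46.2, 42.6 and 46.9 CPM in DMSO replicates 1 to 3 and 51.6, 48.7 and 52 CPM in 3Cl-HBA replicates 1 to 3. Each treated library was above each DMSO library, the closest being 48.7 CPM in 3Cl-HBA replicate 2 and 46.9 CPM in DMSO replicate 3. The log2 fold change was 0.17 ± 0.072 (SE), with a 95% interval from 0.022 to 0.31. The edgeR unadjusted p was 0.0248 and the adjusted p 0.959. Over the alternatives the estimate ran from 0.12 to 0.20 and the adjusted p from 0.606 to 1. Atg5, to which the Atg12 protein is joined, had 27.4, 28.8 and 30.4 CPM in DMSO replicates 1 to 3 and 28.8, 29.7 and 29.4 CPM in 3Cl-HBA replicates 1 to 3. Those groups overlapped, and the log2 fold change was 0.024 (95% interval -0.15 to 0.20).

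The remaining conjugation genes gave no separation of the groups. Atg16l1 had 60.8 ± 3.46 and 57.7 ± 3.1 CPM with a log2 fold change of -0.072 (95% interval -0.21 to 0.066), and its highest library was DMSO replicate 3. Atg3 had 57.2 ± 1.31 and 56.8 ± 2.87 CPM and a log2 fold change of -0.010 (95% interval -0.15 to 0.13). Atg7, the enzyme at the head of both conjugation chains, was the lowest of the 35 genes per length, and had 19.6, 23.3 and 19.2 CPM in DMSO replicates 1 to 3 and 18, 22.4 and 20.8 CPM in 3Cl-HBA replicates 1 to 3. DMSO replicate 2 and 3Cl-HBA replicate 2 were its highest libraries, and its log2 fold change was -0.020 (95% interval -0.23 to 0.19).

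**Figure D4:**
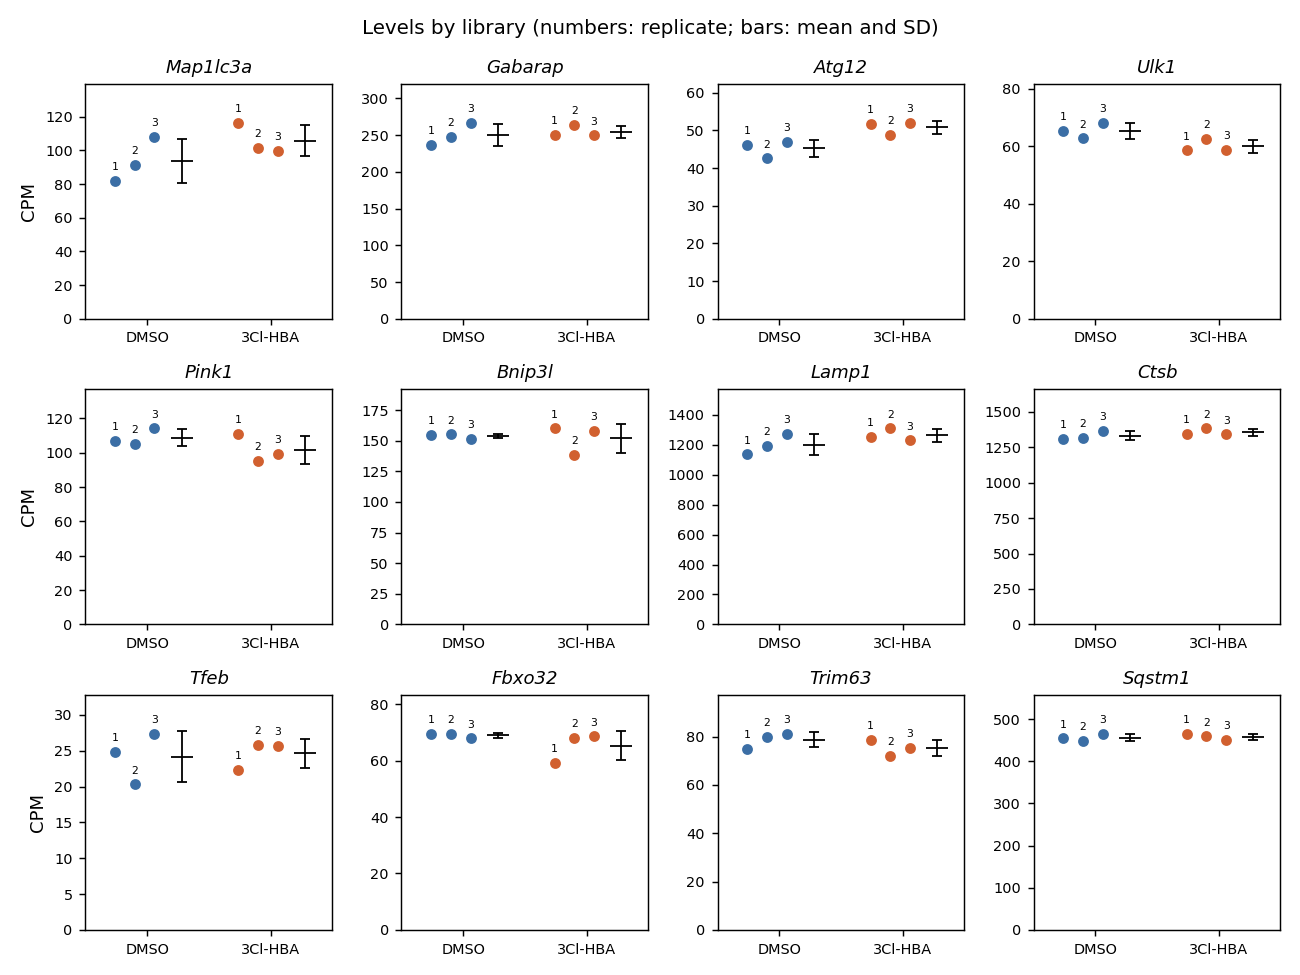
CPM (y axis, from 0) in each library for 12 of the 35 genes, DMSO in blue and 3Cl-HBA in orange, numbered by replicate, with the mean and SD (n = 3) drawn beside the points. The groups do not overlap for Atg12 and Ulk1 and overlap for the other 10 genes shown.

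Mitophagy removes damaged mitochondria, through membrane receptors such as Bnip3, Bnip3l and Fundc1 or through the kinase Pink1, which builds up on mitochondria that lose their potential. The 4 genes split evenly, with 2 estimates above 0 and 2 below, a median of -0.0050 and 0 passing. Bnip3 (ENSRNOG00000017243, chromosome 1, 211248098 to 211265282, minus strand), a receptor induced by low oxygen, led by FPKM with 68 to 75.4 FPKM. It had 115, 115 and 117 CPM in DMSO replicates 1 to 3 and 121, 111 and 117 CPM in 3Cl-HBA replicates 1 to 3, the DMSO libraries lying within the range of the treated ones, and a log2 fold change of 0.0073 (95% interval -0.10 to 0.12). Bnip3l, also called Nix, had 155, 155 and 152 CPM in DMSO replicates 1 to 3 and 160.2, 139 and 158 CPM in 3Cl-HBA replicates 1 to 3. 3Cl-HBA replicate 2 was the low library for both Bnip3 and Bnip3l, and without it the Bnip3l estimate went from -0.017 to 0.047. Fundc1, a receptor in the outer mitochondrial membrane, was low at 9.3 to 10.9 FPKM and had a log2 fold change of 0.034 (95% interval -0.16 to 0.23). Pink1 had 107, 105 and 114 CPM in DMSO replicates 1 to 3 and 111, 95.3 and 99.1 CPM in 3Cl-HBA replicates 1 to 3. 3Cl-HBA replicates 2 and 3 were below the DMSO range and replicate 1 was inside it, which gave a log2 fold change of -0.096 ± 0.060 (SE), with a 95% interval from -0.22 to 0.024 and an edgeR adjusted p of 0.98. Without 3Cl-HBA replicate 1 the Pink1 estimate was -0.16. By FPKM the 4 genes shared the sum with Bnip3 at 40.9 ± 0.235% in DMSO and 41.8 ± 0.495% after 3Cl-HBA and Pink1 at 25.8 ± 0.926% in DMSO and 24.5 ± 0.81% after 3Cl-HBA. By read counts, not divided by length, Bnip3l held the larger share, 38.6% and 38.8%, against 29% and 29.7% for Bnip3.

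Lamp1 and Lamp2 are the main glycoproteins of the lysosome membrane, and Lamp2 is needed for vesicles to join lysosomes in heart muscle. Both estimates were above 0 and neither passed. Lamp1 (ENSRNOG00000019629, chromosome 16, 81689335 to 81714419, minus strand) had 1136, 1193 and 1274 CPM in DMSO replicates 1 to 3 and 1251, 1310.2 and 1229.8 CPM in 3Cl-HBA replicates 1 to 3. DMSO replicate 1 was lowest and DMSO replicate 3 lay among the treated libraries, so the groups overlapped, with a log2 fold change of 0.073 ± 0.044 (SE), with a 95% interval from -0.016 to 0.16 and an edgeR adjusted p of 0.975. Leaving out DMSO replicate 3 gave 0.11, and leaving out DMSO replicate 1 gave 0.034. Lamp2 had 279, 287 and 269.9 CPM in DMSO replicates 1 to 3 and 275, 297 and 278 CPM in 3Cl-HBA replicates 1 to 3 and a log2 fold change of 0.026 (95% interval -0.071 to 0.12). Per length Lamp1 was above Lamp2, at 284 to 324 FPKM against 154 to 169 FPKM.

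Cathepsins are the proteases of the lysosome. Of these 5 genes 4 had estimates above 0, the median log2 fold change was 0.017, estimates ran from -0.026 to 0.031, and 0 passed. Ctsb (ENSRNOG00000010331, chromosome 15, 46316741 to 46337612, plus strand) had 1309, 1319 and 1367 CPM in DMSO replicates 1 to 3 and 1343, 1384 and 1342 CPM in 3Cl-HBA replicates 1 to 3, and Ctsl had 1113, 1106 and 1165 CPM in DMSO replicates 1 to 3 and 1199, 1117 and 1108 CPM in 3Cl-HBA replicates 1 to 3. Ctsd (ENSRNOG00000020206, chromosome 1, 215541542 to 215553451, minus strand) had 1137, 1144 and 1213 CPM in DMSO replicates 1 to 3 and 1214, 1156 and 1199 CPM in 3Cl-HBA replicates 1 to 3. For all 3 genes the groups overlapped, DMSO replicate 3 being the highest DMSO library each time, and the log2 fold changes were 0.027 (95% interval -0.056 to 0.11), 0.017 (95% interval -0.070 to 0.10) and 0.031 (95% interval -0.054 to 0.12). Ctsa, a serine carboxypeptidase that also protects lysosomal sialidase and galactosidase, had 481 ± 14.1 and 483 ± 15.1 CPM and a log2 fold change of 0.0062 (95% interval -0.085 to 0.097). Its locus overlaps Neurl2 and Pltp on the other strand. Ctsz, an exopeptidase, was the lowest and most scattered of the 5, with 95.7, 86.9 and 106 CPM in DMSO replicates 1 to 3 and 98.2, 84.6 and 101 CPM in 3Cl-HBA replicates 1 to 3. The shares of the summed FPKM held by Ctsb, Ctsl, Ctsd, Ctsa and Ctsz in DMSO were 30.7%, 30.8%, 25.8%, 9.51% and 3.18%. After 3Cl-HBA they were 30.9%, 30.7%, 26%, 9.41% and 3.08%, with SDs of at most 0.905 percentage points. Macrophages and fibroblasts are rich in lysosomes and were present by their markers, and their part in the cathepsin levels was not tested.

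Tfeb and Tfe3 encode related transcription factors that enter the nucleus when mTORC1 is inactive and bind E-boxes before lysosome and autophagy genes. Both were modest in level, and neither passed. Tfeb (ENSRNOG00000014666, chromosome 9, 15207822 to 15214596, minus strand) had 24.8, 20.3 and 27.3 CPM in DMSO replicates 1 to 3 and 22.3, 25.8 and 25.7 CPM in 3Cl-HBA replicates 1 to 3. DMSO replicates 2 and 3 were its lowest and highest libraries, so the treated range fell inside that of DMSO, with a log2 fold change of 0.032 (95% interval -0.17 to 0.23). Tfe3 had 33.4, 28.9 and 31.3 CPM in DMSO replicates 1 to 3 and 30.7, 34.1 and 30.9 CPM in 3Cl-HBA replicates 1 to 3 and a log2 fold change of 0.033 (95% interval -0.14 to 0.20). Per length Tfe3 was above Tfeb, at 16.8 to 19.7 FPKM against 8.63 to 11.6 FPKM.

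Promoters of the 35 genes were searched for the letters that TFEB family proteins and FoxO factors are known to bind, to show which genes carry them. RefSeq promoter sequences of build GRCr8, from 250 bases before to 50 bases after the start, matched 29 of the 35 genes by symbol, and Map1lc3a, Becn1, Bnip3l, Fundc1, Ctsb and Fbxo32 had no entry. The E-box CACGTG was present, on both strands since it reads the same on each, in 6 of 29 promoters (20.7%), those of Atg3, Atg5, Bnip3, Pink1, Lamp1 and Ctsd, and in 6.42% of 33469 promoters in all. The extended form GTCACGTG, which contains the E-box and was searched on both strands, was in 3 of 29 (10.3%), those of Atg3, Lamp1 and Ctsd, and in 1.85% of all. The 3 promoters are printed from 20 bases before the first E-box to 20 after the last or to the base before the start, 5′ to 3′ on the gene's strand, with E-boxes in capitals. The Lamp1 stretch (chr16:83075076-83075266, minus strand) holds 5 E-boxes, the Ctsd stretch (chr1:206968822-206968998, minus strand) holds 2 and the Atg3 stretch (chr11:69159281-69159339, minus strand) holds 2.
Lamp1: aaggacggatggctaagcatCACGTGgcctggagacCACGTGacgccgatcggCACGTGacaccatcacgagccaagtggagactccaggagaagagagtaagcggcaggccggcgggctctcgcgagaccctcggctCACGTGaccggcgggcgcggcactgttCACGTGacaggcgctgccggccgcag
Ctsd: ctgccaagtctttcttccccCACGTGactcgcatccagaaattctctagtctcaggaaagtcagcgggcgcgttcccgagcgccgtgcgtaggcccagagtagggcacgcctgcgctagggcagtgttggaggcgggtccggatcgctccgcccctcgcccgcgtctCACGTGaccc
Atg3: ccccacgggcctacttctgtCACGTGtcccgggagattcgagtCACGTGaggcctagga
The 3 genes with the extended form had log2 fold changes of 0.073, 0.031 and -0.010, each with an interval that includes 0. A match describes letters only and is not evidence of a bound site.

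The atrophy ligases were expressed at clear levels in both groups, and neither passed. Fbxo32 (ENSRNOG00000006738, chromosome 7, 98063735 to 98098268, minus strand) encodes atrogin-1, the F-box subunit that directs a ubiquitin ligase to calcineurin and other muscle proteins. It had 69.5, 69.6 and 68 CPM in DMSO replicates 1 to 3 and 59.3, 68 and 68.6 CPM in 3Cl-HBA replicates 1 to 3. The DMSO libraries were tight, 3Cl-HBA replicate 1 was low, and 3Cl-HBA replicates 2 and 3 lay close to the DMSO values, which gave a log2 fold change of -0.078 ± 0.066 (SE), with a 95% interval from -0.21 to 0.055 and an edgeR adjusted p of 0.984. Without 3Cl-HBA replicate 1 the estimate was -0.014. Trim63 (ENSRNOG00000016543, chromosome 5, 152533349 to 152547179, plus strand) encodes MuRF1, a RING ligase that marks thick filament proteins. It had 75, 80 and 81.1 CPM in DMSO replicates 1 to 3 and 78.7, 72 and 75.2 CPM in 3Cl-HBA replicates 1 to 3, groups that overlapped, a log2 fold change of -0.065 ± 0.062 (SE), with a 95% interval from -0.19 to 0.060 and an edgeR adjusted p of 0.984. In folds the intervals were 0.864 to 1.04 for Fbxo32 and 0.876 to 1.04 for Trim63. Per length Trim63 exceeded Fbxo32 in each library, at 37.8 to 42.7 FPKM against 18.8 to 21.9 FPKM, and held 65.7 ± 1.14% in DMSO and 65.9 ± 2.7% after 3Cl-HBA of their sum. By read counts, not divided by length, Fbxo32 held 46.7% and 46.4%. The summed FPKM of the pair was 61.6, 64.2 and 64 in DMSO and 60.5, 59.1 and 61.1 after 3Cl-HBA, each treated sum lying below each DMSO sum although neither gene separated the groups alone. The closest sums were 61.6 FPKM in DMSO replicate 1 and 61.1 FPKM in 3Cl-HBA replicate 3. The sums of the other 8 groups of genes overlapped between treatments. Of all single genes 5.21% separated in this direction and 5.24% in the other. No such share was computed for sums, so this separation is not read as a difference. Both genes are known from striated muscle. Of the 10 cardiomyocyte markers 8 had estimates below 0, with a median log2 fold change of -0.060 and 0 called. At an unadjusted edgeR p under 0.05, 4 were lower, as were 2.59% of all genes. They were Myh7, Myl2, Ryr2 and Nppa, at -0.097, -0.14, -0.17 and -0.13. Myl7, Atp2a2, Myh6 and Tnnt2 stood at -0.084, -0.035, -0.0048 and -0.0038, and Tnni3 and Actc1 at 0.033 and 0.028. The part of muscle cell content in the ligase values was not tested. Fbxo32 had no promoter entry to search. The FoxO motif GTAAACA, searched on both strands, was found in 1 of 29 promoters (3.45%), that of Trim63, and in 3.78% of all promoters. It is in capitals in the Trim63 stretch printed here (chr5:151817011-151817057, plus strand), where it lies on the other strand.
Trim63: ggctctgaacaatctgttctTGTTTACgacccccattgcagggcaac

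Other genes of the same pathways, taken from 5 lists, gave 0 calls as well. Of 28 other autophagy genes 26 were tested, 7 were above 0 and 19 below, and the median log2 fold change was -0.032. The 3 most abundant per length were the receptor Tax1bp1 with 294 ± 12.9 and 296 ± 2.89 CPM (log2 fold change 0.0078), the ferritin receptor Ncoa4 with 163 ± 4.38 and 160.0 ± 6.42 CPM (log2 fold change -0.024) and the lipid-binding protein Wdr45b with 58 ± 1.59 and 57.2 ± 3.03 CPM (log2 fold change -0.020). Of 9 other mitophagy genes 8 were tested, 3 above 0 and 5 below, with a median of -0.0046. Prohibitin Phb2 had 129.7 ± 3.97 and 127 ± 3.9 CPM (log2 fold change -0.031), the receptor Fkbp8 137 ± 8.6 and 142 ± 2.01 CPM (log2 fold change 0.048) and the mitochondrial ligase Marchf5 87.1 ± 3.48 and 86.9 ± 1.63 CPM (log2 fold change -0.0042). Other cathepsins and cystatins, 8 tested of 9, were split 4 and 4, with a median of -0.0013. The protease inhibitors Cst3 and Cstb had 322 ± 24.7 and 324 ± 11 CPM (log2 fold change 0.0081) and 122 ± 5.25 and 125 ± 3.71 CPM (log2 fold change 0.032), and cathepsin H, Ctsh, had 135 ± 21.1 and 129.9 ± 3.66 CPM (log2 fold change -0.058).

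All 21 other lysosome genes were tested, 11 above 0 and 10 below, with a median log2 fold change of 0.0041. Prosaposin Psap, the precursor of the sphingolipid activators, had 1513 ± 28.7 and 1529 ± 17.1 CPM (log2 fold change 0.015), the membrane protein Cd63 534 ± 16 and 515 ± 53 CPM (log2 fold change -0.053) and progranulin Grn 628 ± 27.3 and 633 ± 6.52 CPM (log2 fold change 0.011). All 16 other atrophy and regulator genes were tested, 6 above 0 and 10 below, with a median of -0.0087. The ligase Nedd4 had 2113 ± 35.5 and 2095 ± 62.9 CPM (log2 fold change -0.013), and the MuRF relatives Trim54 and Trim55 had 129 ± 8.03 and 129 ± 8.38 CPM (log2 fold change -0.0070) and 198 ± 3.58 and 201 ± 1.24 CPM (log2 fold change 0.020). The names Wdfy3, Calcoco1, Gla and Stub1 were picked after seeing their values, since these 4 had an unadjusted edgeR p under 0.05 in these 5 lists. They stood at -0.18, -0.46, -0.20 and 0.16 on the log2 scale, with adjusted p of 0.914 for Wdfy3 and 0.959 for the other 3. That is 1 of 79 genes higher and 3 of 79 lower, where 2.52% and 2.59% of all genes were, so the count is near the background. Wdfy3, a large scaffold for aggregate removal, had 173 ± 10.1 and 153 ± 9.53 CPM, and each treated library was below each DMSO library. The groups also separated for Calcoco1, Pik3r4 and Gla (lower) and for Tex264, Mul1 and Lipa (higher), which makes 4 of 79 lower and 3 of 79 higher, against 5.21% and 5.24% of all genes. Pik3r4, Tex264, Mul1 and Lipa were likewise named after their values were seen.

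Leaving out single libraries changed the sign of many of these small estimates. DMSO replicate 3 was the highest library for 12 of the 35 genes, and DMSO replicates 1 and 2 were each the lowest for 9. 3Cl-HBA replicate 1 was the highest for 8 and the lowest for 8. Such counts were not made over all genes. The scatter within groups was widest for Tfeb, Map1lc3a, Atg13, Pik3c3 and Atg7, with SDs of log2 CPM of 0.18, 0.16, 0.16, 0.16 and 0.16, and narrowest for Sqstm1, at 0.025. With 1 library left out at a time, the number of the 35 genes with an estimate above 0 ran from 16 to 22, and 0 of 35 passed each time. The LC3 and GABARAP group had medians of 0.021 to 0.069 over the 15 alternatives. Those of the lysosome membrane group ran from 0.018 to 0.064. Medians of the initiation and nucleation group ran from -0.073 to -0.0084 and those of the atrophy ligases from -0.091 to -0.056. Medians of the cathepsins, the mitophagy genes, the conjugation machinery, the cargo receptors and the transcription factors took both signs.

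**Figure D5:**
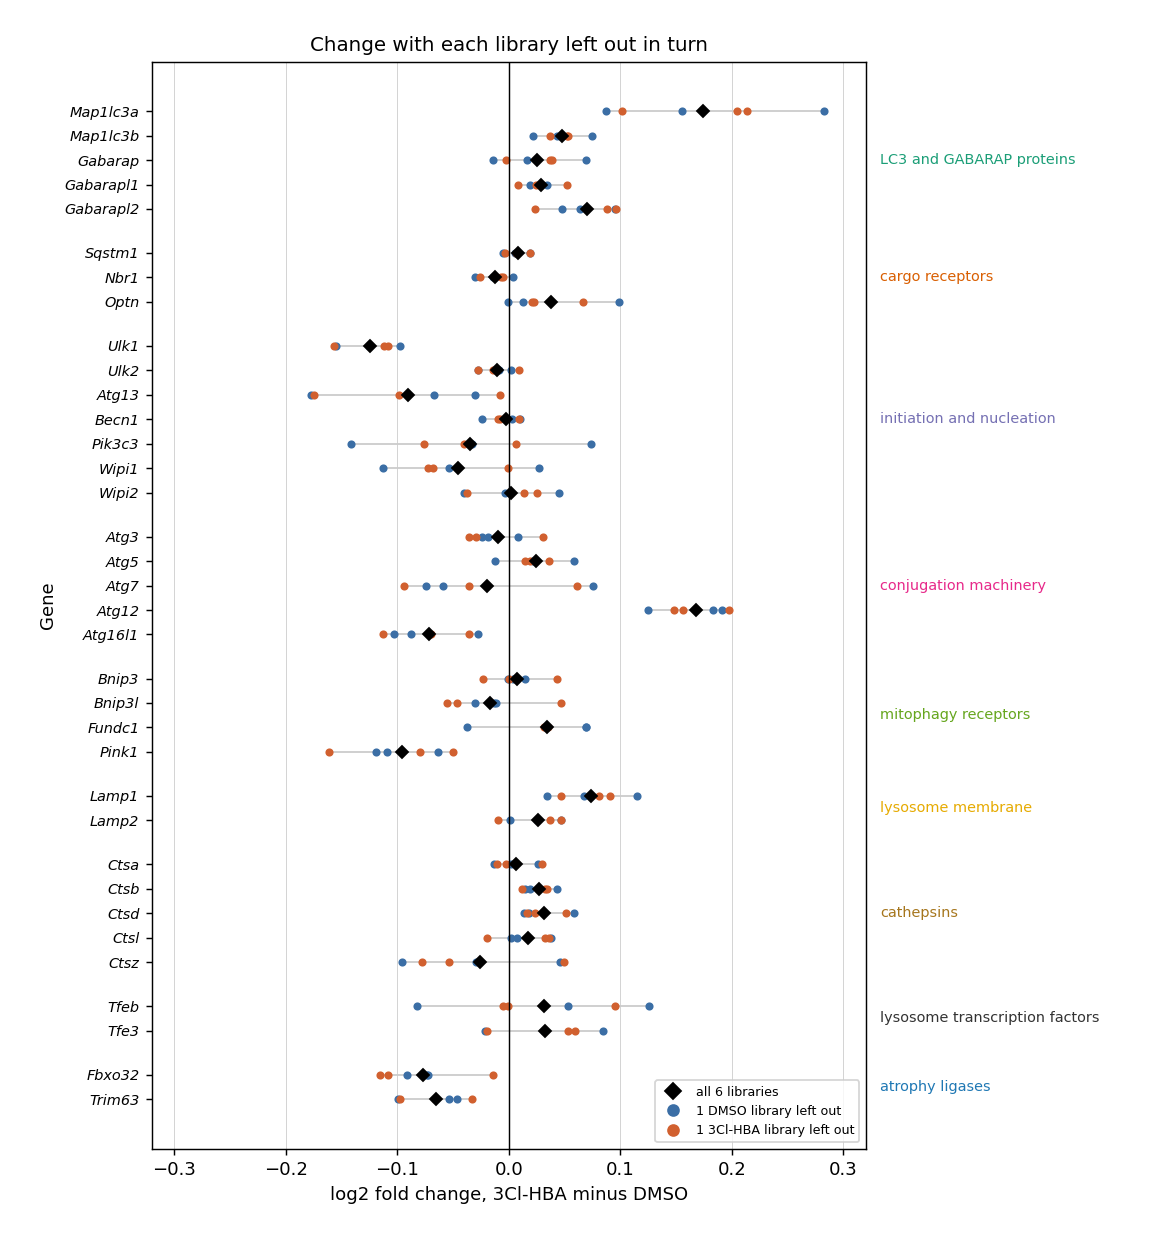
Log2 fold change (x axis, 3Cl-HBA minus DMSO) of the 35 genes (y axis, grouped by role) with all 6 libraries (black diamonds) and with each DMSO (blue) or 3Cl-HBA (orange) library left out. Estimates for Map1lc3a run from 0.087 to 0.28, those for Ulk1 stay below 0, and many others cross 0.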

How the data were processed

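Per the labels' protocols, libraries were made with the KAPA RiboErase kit, read on an Illumina instrument, and analysed by the authors with DESeq2. The deposited table holds whole-number read counts per gene and library, not normalised, and FPKM computed by the authors, which equal count over length and library total within a relative gap of 8.2e-08. Gene lengths are the authors' values. The sources used here do not give the aligner, the counting program, the strand setting, the build or the annotation.

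Columns were tied to libraries through the treatment protocol and replicate number in the labels. Counts were fitted in R 4.3.3 with edgeR 4.0.16 (TMM, filterByExpr with a minimum count of 10, robust glmQLFit, no block), which kept 13903 genes, and adjusted by Benjamini-Hochberg over all of them. The SE is the absolute log2 fold change over the square root of F. CPM use TMM-scaled library totals. Exact permutation tests were left out, because with 3 against 3 libraries their smallest p is 0.1. DESeq2 1.42.0, limma-voom (limma 3.58.1), other scalings and filters, a fit without robust estimation, a replicate block, a length correction (a loess over log2 length per library, span 0.5) and each library left out were alternatives. The fits were tested on simulated counts with planted changes far larger than the estimates of the 35 genes. That test does not speak for changes as small as these. Lists have no set test. The 35 genes and the lists were chosen with earlier results of these data known. All 35 genes and the 10 cardiomyocyte markers are named. Of each wider list the 3 with the highest mean FPKM are named, with any called gene. Other genes named are said to be picked after their values were seen. Of 83 genes on the wider lists, 79 were matched by symbol or RefSeq synonym (assembly GRCr8). Markers of smooth muscle, endothelium, Schwann cells and neurons and red cells were also summed, at 2475 to 2715, 557 to 639.7, 94.2 to 98.7 and 20.7 to 22.4 CPM in DMSO and 2541 to 2584, 574 to 600.2, 95.7 to 113 and 22.5 to 31.7 CPM after 3Cl-HBA.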

Additional observations from a re-analysis of the deposited data

How the results depend on the processing

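Under all 15 alternatives 0 of the 35 genes passed. Over all genes the count of calls was 0 and became 2 with no filter on low counts, 1 with limma-voom and 0 to 8 with 1 library left out, the highest without DMSO replicate 3; without DMSO replicate 2 it was 1 and without 3Cl-HBA replicates 2 and 3 it was 2 and 3. Of the log2 fold changes of the 35 genes recomputed under these alternatives, 479 kept their sign and 46 changed it, 38 of these with a library left out. The sign changed at least once for 21 genes and not for the other 14. With a library left out the log2 fold changes that took both signs had the ranges Gabarap -0.015 to 0.069, Sqstm1 -0.0050 to 0.019, Nbr1 -0.030 to 0.0036, Optn -0.00092 to 0.099, Ulk2 -0.028 to 0.0091, Becn1 -0.024 to 0.010, Pik3c3 -0.14 to 0.073, Wipi1 -0.11 to 0.027, Wipi2 -0.040 to 0.045, Atg3 -0.036 to 0.030, Atg5 -0.012 to 0.059, Atg7 -0.094 to 0.075, Bnip3 -0.024 to 0.043, Bnip3l -0.055 to 0.047, Fundc1 -0.038 to 0.069, Lamp2 -0.0095 to 0.047, Ctsa -0.014 to 0.030, Ctsl -0.020 to 0.037, Ctsz -0.096 to 0.049, Tfeb -0.082 to 0.13 and Tfe3 -0.022 to 0.085. With the length trend removed the values were -4.2e-05 for Sqstm1, 0.0033 for Nbr1, 0.015 for Ulk2, 0.0067 for Becn1, -0.0067 for Wipi2 and -0.0053 for Bnip3. Scaling by library totals gave -0.00024 for Wipi2, and no filter gave 0.0014 for Becn1. The cause was not tested. The labels number replicates 1 to 3 in both groups. Same-numbered libraries had correlations of -0.11, -0.041 and -0.0085 in their deviations from the group means. Differently numbered libraries had correlations from -0.062 to 0.11. Deviations from a mean of 3 libraries are tied to each other, so these values cannot tell whether the numbers mark pairs. With the replicate block 0 genes passed, and 604 had an unadjusted p under 0.05 in place of 711. The precision of each estimate is that of the interval printed beside it, from 3 libraries per group.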
